A study of Mus musculus with 6 samples.

Results

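The insulin-like growth factor (IGF) system was followed in whole testes of mouse fetuses at embryonic day E16.5, as 10 genes taken by name from the gene count table: the ligands Igf1 and Igf2, the receptors Igf1r, Igf2r and Insr, and the binding proteins Igfbp2, Igfbp3, Igfbp4, Igfbp5 and Igfbp7. All 10 were found, each as 1 row of the 42747 in the table, and all 10 passed the filter on low counts that left 18383 genes for testing. The libraries came from 3 mice labelled cKO and 3 labelled WT, 1 library per mouse. The series title is about the kinase CK1α (gene Csnk1a1) in Sertoli cells, which support the germ cells inside the testis cords, so cKO was taken to mean that this gene was deleted conditionally. The floxed allele, the Cre driver, the strain and the genotype of the WT mice are not stated in the labels.

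IGF1 and IGF2 are small secreted growth factors related to insulin. Both act through the tyrosine kinase receptor IGF1R, and IGF2 also through the insulin receptor, whereas IGF2R takes IGF2 up for breakdown in lysosomes. Binding proteins hold most of the ligand outside cells and release it when they are cut by proteases or attach to the matrix. In mice the insulin receptor family is needed for testis determination and for the number of Sertoli cells, and Igf2 and Igf2r are imprinted with opposite parental expression.

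Gene counts summed to 15092619 to 17431546 in the cKO libraries and to 15281569 to 16646569 in the WT libraries. Csnk1a1 stood at 393 ± 14.1 CPM (counts brought to the same total in each library) in cKO and 372 ± 24.0 CPM in WT testes (SD, n = 3 each), a whole-gene count that does not check the labels because the deleted part is not given. The tissue label was checked against markers chosen for 10 cell types. No matched marker was at 0 in all libraries, and Sertoli cell markers were present in both groups. All 12 Sertoli markers were called lower in cKO by edgeR, and their summed level was 801 to 1275 CPM in cKO testes against 2549 to 3519 CPM in WT testes. In RNA of a whole organ, fewer cells of a type and less RNA per cell cannot be told apart. Nothing in the labels says whether the mice shared litters, so the p-values below measure the spread between these mice.

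The sequences upstream of the 3 members whose cKO and WT libraries did not overlap, described below, are shown first. Of these 3, Igfbp4 alone passed the adjusted threshold of the edgeR test. Each is the 250 bases before the RefSeq start in GRCm38.p6, on the strand of the gene and 5′ to 3′, and capitals mark matches to the motifs named after them.
Igfbp4, chr11:99040994-99041243, plus strand: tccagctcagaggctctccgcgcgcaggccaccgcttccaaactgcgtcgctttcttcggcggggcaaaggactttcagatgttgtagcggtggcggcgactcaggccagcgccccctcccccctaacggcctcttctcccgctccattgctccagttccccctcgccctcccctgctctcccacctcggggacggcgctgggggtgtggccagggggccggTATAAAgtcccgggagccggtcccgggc
Igf1, chr10:87860861-87861110, plus strand: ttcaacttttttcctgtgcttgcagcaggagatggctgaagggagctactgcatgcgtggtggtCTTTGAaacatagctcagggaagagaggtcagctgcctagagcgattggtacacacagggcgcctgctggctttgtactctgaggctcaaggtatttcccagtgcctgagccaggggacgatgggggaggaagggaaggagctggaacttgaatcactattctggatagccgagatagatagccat
Igfbp5, chr1:72874866-72875115, minus strand: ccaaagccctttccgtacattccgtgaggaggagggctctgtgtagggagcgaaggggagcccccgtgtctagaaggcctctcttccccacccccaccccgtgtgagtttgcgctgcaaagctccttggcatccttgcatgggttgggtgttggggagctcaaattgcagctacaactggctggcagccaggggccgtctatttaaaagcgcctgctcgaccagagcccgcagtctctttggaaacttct
Of the members, 9 of 10 matched this table by symbol. The motifs searched on both strands were CTTTGA, the core of the TCF/LEF site through which β-catenin acts, GGGCGG, the GC box, and TATAAA, the TATA box, and none of them overlapped another motif in these 3 windows. Igfbp4 held TATAAA once, 28 bases before the start, as did 12.4% of 32851 upstream windows of the same length at any position. Igf1 held CTTTGA once, 186 bases before the start, a motif found in 13.8% of windows. The members had 13 windows, and 3 of them held this motif, 1 each for Igf1, Igf1r and Igf2. Igfbp5 held none of the 3 motifs, and the GC box, in 32.7% of all windows, was in none of these 3. The GC content was 69.2% for Igfbp4, 52.8% for Igf1 and 58.8% for Igfbp5. A match describes letters and not a bound site, and the windows were not measured in these libraries.

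In cKO testes, 1 of the 10 members, the binding protein gene Igfbp4, was higher and none was lower. It rose 1.77-fold, to 935 ± 152 CPM in cKO testes against 528 ± 111 CPM in WT testes (SD, n = 3 each). The ligand gene Igf1 and the binding protein gene Igfbp5 were higher in all 3 cKO libraries than in any WT library without passing the adjusted threshold. The 3 receptor genes lay at or below their WT level, with fold changes between 0.809 and 0.975. Log2 fold changes here are cKO over WT from edgeR's quasi-likelihood test on counts, adjusted by Benjamini-Hochberg over all 18383 genes, and a gene is called at an adjusted p under 0.05.

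Read against all genes, 1 of 10 members called higher compares with 1.5% of tested genes called higher, and 0 of 10 called lower with 1.84%. The unadjusted edgeR p was under 0.05 for 5 of 10 members on the higher side, against 7.75% of all genes, and for none on the lower side, against 8.03%. The groups did not overlap for 3 of 10 members, all higher in cKO, against 10.7% of all genes. DESeq2 called 2 members higher, where it called 3.32% of genes higher, and limma-voom called 1, where it called 1.46%. Neither called a member lower, beside 3.61% of genes for DESeq2 and 1.82% for limma-voom. The groups were apart for no member on the lower side, against 10.9% of genes. The median log2 fold change of the 10 members was 0.29, beside 0.00 over all tested genes, with 7 positive and 3 negative values that ran from -0.31 to 0.82.

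**Figure D1:**
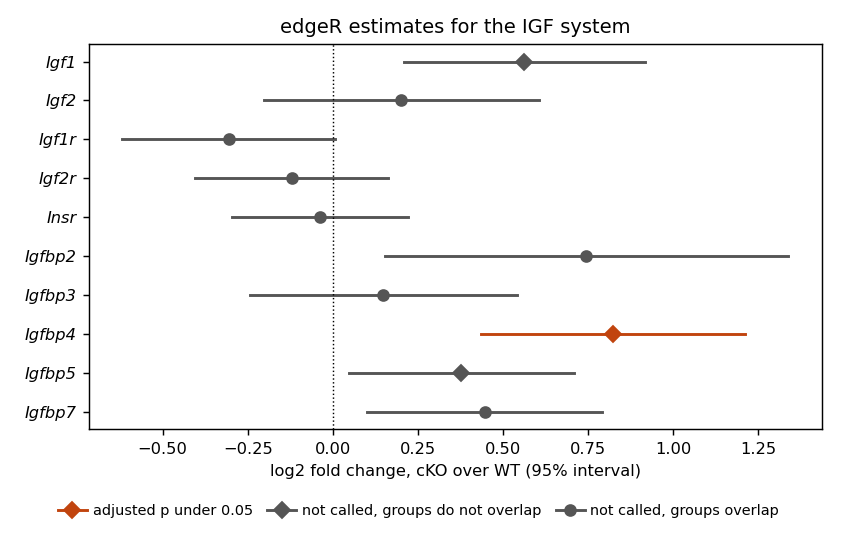
Log2 fold changes of the 10 members (horizontal axis, cKO over WT) with 95% intervals from edgeR, n = 3 libraries per group. The called gene, Igfbp4 at 0.82, is in red, diamonds mark the 3 members whose groups did not overlap, and the 3 receptor genes lie left of 0.

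Per length, Igfbp5 and Igfbp7 were the most abundant of the transcripts in both groups. Levels between genes are given in FPKM, fragments scaled by gene length and library total, as the authors deposited it. Igfbp5, whose protein binds the extracellular matrix, led with 235 ± 31.4 FPKM in cKO and 180 ± 19.7 FPKM in WT (SD, n = 3 each). Igfbp7, a binding protein of low affinity for IGFs, followed with 215 ± 31.2 FPKM in cKO and 157 ± 29.0 FPKM in WT. Neighbours in this order overlapped at the top, so the libraries do not separate Igfbp5, Igfbp7 and Igfbp4 in cKO, or Igfbp5, Igfbp7, Igf2 and Igfbp4 each from the next in WT. In cKO the lowest Igfbp4 library, at 178 FPKM, was above the highest Igf2 library, at 163 FPKM. In WT the same genes overlapped, at 101 to 148 FPKM for Igfbp4 and 110 to 146 FPKM for Igf2.

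Below them came Igfbp3, the main carrier of IGFs in blood, at 97.8 ± 24.6 FPKM in cKO and 87.9 ± 11.0 FPKM in WT, and Igfbp2, which binds IGF2 with high affinity, at 70.3 ± 27.8 FPKM in cKO and 41.8 ± 13.1 FPKM in WT. Igf2r had 36.0 ± 3.40 FPKM in cKO and 39.0 ± 4.02 FPKM in WT. Igf1 and Igf1r changed places in the order. Igf1 had 28.8 ± 5.24 FPKM and Igf1r 20.8 ± 2.05 FPKM in cKO, without overlap, whereas in WT Igf1 had 19.4 ± 3.04 FPKM and Igf1r 25.6 ± 4.33 FPKM, with overlap. Insr was lowest in both groups, at 11.8 ± 0.502 FPKM in cKO and 12.1 ± 1.28 FPKM in WT. Even so, Insr stood above 72.8% of 20461 protein-coding genes in cKO and 73.8% in WT, and Igfbp5 above 99.6% in cKO and 99.5% in WT. These levels depend on the deposited gene lengths, which ran from 1209 bases for Igfbp7 to 9901 bases for Igf1. On the CPM scale, which takes no account of length, Igf1 (287 ± 52.6 CPM in cKO testes and 195 ± 29.6 CPM in WT testes) and Igfbp7 (262 ± 37.7 CPM in cKO testes and 192 ± 34.8 CPM in WT testes) received similar numbers of reads.

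**Figure D2:**
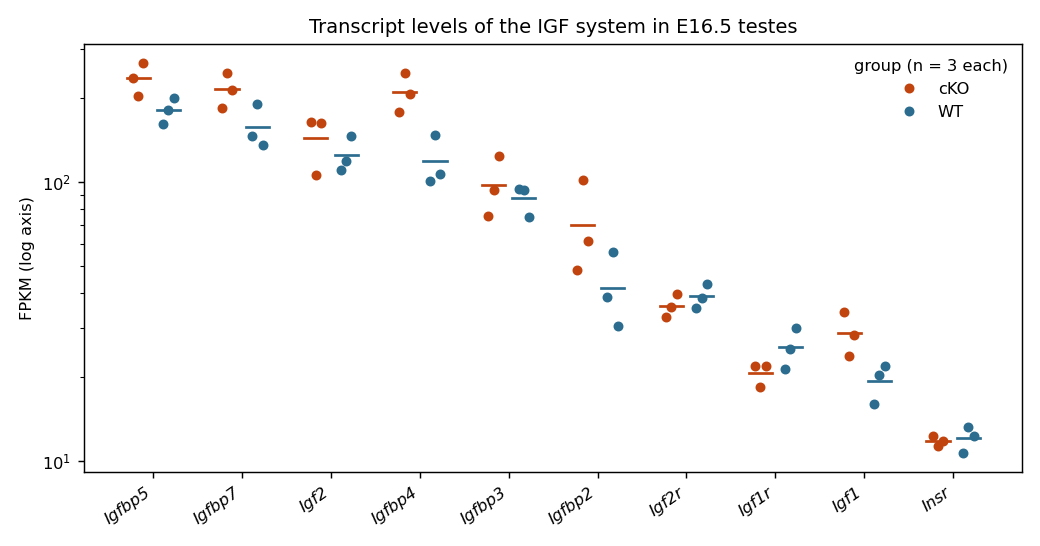
FPKM (vertical log axis) of the 10 members in each library, cKO left of WT, with a bar at the mean of 3 libraries. Binding proteins and Igf2 fill the upper range, with Igfbp5 at 235 FPKM in cKO and 180 FPKM in WT, and Insr is lowest at 11.8 FPKM in cKO and 12.1 FPKM in WT.

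Of the ligands, Igf1 was the one whose groups did not overlap. Igf1 had 342, 238 and 282 CPM in cKO libraries 1, 2 and 3, against 161, 203 and 219 CPM in WT libraries 1, 2 and 3. The lowest cKO library thus lay just above the highest WT library. The log2 fold change was 0.56 (SE 0.161, 95% interval 0.21 to 0.92), and it was not called by edgeR (adjusted p = 0.0972). DESeq2 called it (adjusted p = 0.0204), as did the edgeR fit without cKO library 2 (a log2 fold change of 0.68, adjusted p = 0.0257). No other fit that left out 1 library called it. The log2 fold change was 0.42 without cKO library 1 (edgeR adjusted p = 0.161) and 0.45 without WT library 1 (edgeR adjusted p = 0.347). Igf1 lies at positions 91907890 to 91987972 of chromosome 10 on the plus strand (files' coordinates, C57BL/6NJ), and overlaps the antisense gene Igf1os, which had 3 to 13 counts per library.

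Igf2, the main fetal growth factor of the pair, had 944, 612 and 941 CPM in cKO libraries 1, 2 and 3, against 643, 686 and 843 CPM in WT libraries. The groups overlapped, with a log2 fold change of 0.20 (95% interval -0.20 to 0.60; edgeR adjusted p = 0.655), so a rise of up to 0.60 or a fall of up to 0.20 on that scale is within the error. With 1 library left out the value ran from 0.10 without cKO library 1 to 0.38 without cKO library 2, and no such fit called the gene. cKO library 2 was the lowest of all 6 and the other 2 cKO libraries were the highest. The gene spans 153262361 to 153282637 on chromosome 7, minus strand. It overlaps Igf2os on the other strand, which had 82 to 186 counts per library, and holds the microRNA gene Mir483, which had 3 to 10 counts. With no strand setting given, reads of Igf2 and Igf2os cannot be told apart. The RefSeq table gives Igf2 4 start sites, and a count of the whole gene does not separate them or the parental alleles. The mature microRNAs of Mir483 (RefSeq, GRCm38.p6) are shown because they are transcribed from within Igf2, with the seed, bases 2 to 8, in capitals. The libraries were made from polyadenylated RNA and do not measure them.
mmu-miR-483-3p: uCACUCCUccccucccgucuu
mmu-miR-483-5p: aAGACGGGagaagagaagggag

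Igf2 exceeded Igf1 per length in every library. The ratio of Igf2 to Igf1 FPKM was 4.77, 4.46 and 5.77 in cKO libraries 1, 2 and 3, against 6.89, 5.85 and 6.67 in WT libraries. All 3 cKO ratios lay below the WT ratios, by a mean of -0.38 on the log2 scale (two-sided exact permutation p = 0.1, the smallest that 3 against 3 libraries can give). With 1 library left out the difference ran from -0.48 to -0.30. Summed over both ligands, the libraries held 173 ± 37.4 FPKM in cKO and 145 ± 21.1 FPKM in WT.

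None of the receptor genes was called. Igf1r, the receptor through which both ligands signal, had 99.6, 83.2 and 99.1 CPM in cKO libraries 1, 2 and 3, against 97.7, 114 and 136 CPM in WT libraries. The cKO values were low apart from an overlap with WT library 1, and the log2 fold change was -0.31 (95% interval -0.62 to 0.01; edgeR adjusted p = 0.331). It was -0.41 without WT library 1 and -0.17 without WT library 3, uncalled in both. Igf2r, the clearance receptor, had 312 to 376 CPM in cKO testes and 339 to 413 CPM in WT testes (a log2 fold change of -0.12, edgeR adjusted p = 0.709), with a range of -0.19 to -0.041 over the fits that left out 1 library. Insr, the insulin receptor gene, had 110 to 120 CPM in cKO testes and 105 to 129 CPM in WT testes (-0.04, 95% interval -0.29 to 0.22, edgeR adjusted p = 0.915), and its sign turned, to 0.039, without WT library 2. Igf2r overlaps an antisense gene without a symbol, which had 144 to 603 counts per library beside 4743 to 6899 for Igf2r. The ratio of Igf2r to Igf1r FPKM averaged 1.74 ± 0.227 in cKO and 1.54 ± 0.106 in WT (log2 difference 0.18, two-sided exact permutation p = 0.3), and the difference ran from 0.098 to 0.28 with 1 library left out. The 3 receptors together held 68.5 ± 4.16 FPKM in cKO and 76.7 ± 9.10 FPKM in WT.

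**Figure D3:**
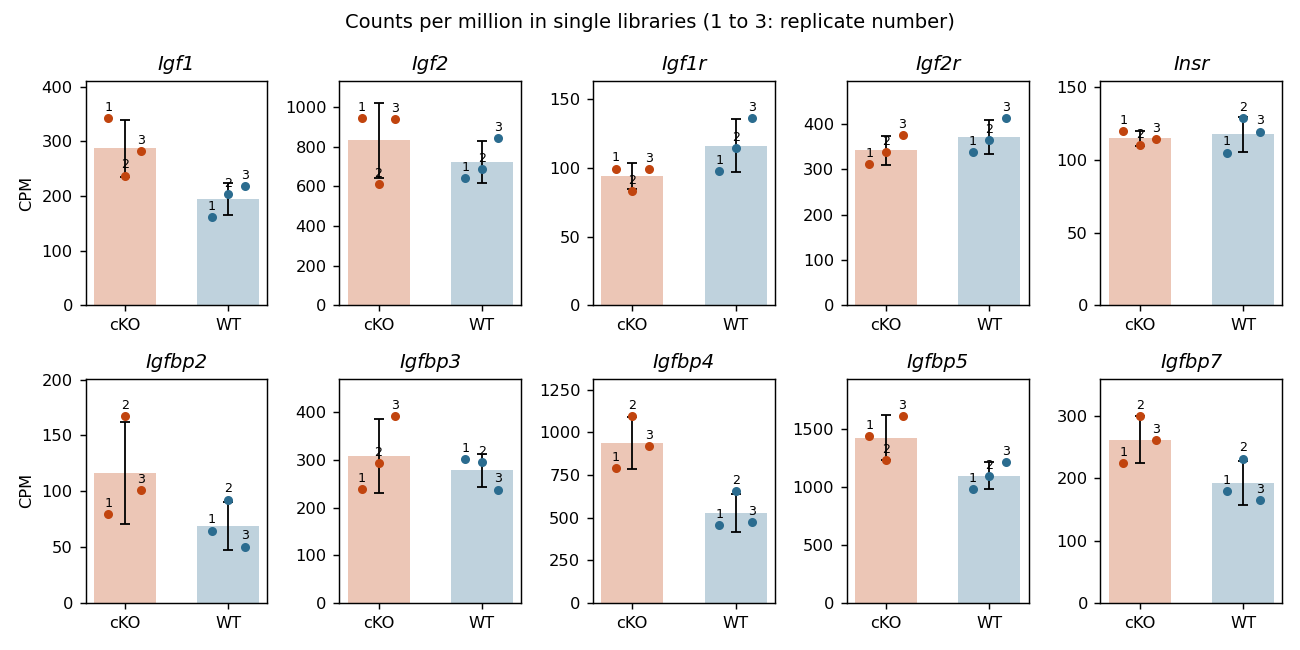
CPM of each member in single libraries, with the replicate number beside each point, bars at the mean and error bars of 1 SD (n = 3 per group). The Igfbp4 points lie at 792 to 1095 CPM in cKO testes and 454 to 656 CPM in WT testes, and those of Insr at 110 to 120 CPM in cKO testes and 105 to 129 CPM in WT testes.

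The binding protein genes among the members all had positive fold changes, and Igfbp4 passed the threshold. Igfbp4, whose protein keeps IGFs from their receptor until it is cut, had 792, 1095 and 918 CPM in cKO libraries 1, 2 and 3, against 454, 656 and 475 CPM in WT libraries 1, 2 and 3. Each cKO library was above each WT library, and library 2 was the highest of both groups. The log2 fold change was 0.82 (SE 0.176, 95% interval 0.44 to 1.21; edgeR adjusted p = 0.0273). DESeq2 gave an adjusted p of 0.000175 and limma-voom 0.021. The call was lost without cKO library 3 (edgeR adjusted p = 0.109), WT library 1 (0.128) or WT library 3 (0.163), at log2 fold changes of 0.84, 0.73 and 0.75, and in limma on log2 FPKM values (adjusted p = 0.0865 with 0.1 added and 0.0834 with 1 added). Igfbp4 lies on chromosome 11, positions 104812099 to 104826250, plus strand, and no other gene of the table overlaps it.

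Igfbp5 was the second binding protein gene without overlap. It had 1435, 1229 and 1609 CPM in cKO libraries 1, 2 and 3, against 982, 1093 and 1214 CPM in WT libraries. The gap between the lowest cKO and the highest WT library was small beside the spread within groups, and the gene was not called (a log2 fold change of 0.38, 95% interval 0.05 to 0.71; edgeR adjusted p = 0.243). Igfbp7 had 224, 300 and 261 CPM in cKO libraries and 180, 231 and 165 CPM in WT libraries. Its groups overlapped through cKO library 1 and WT library 2 (0.45, 95% interval 0.10 to 0.79; edgeR adjusted p = 0.185). The end of Polr2b, on the other strand, overlaps the end of Igfbp7, and Polr2b had 2366 to 3067 counts per library.

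Igfbp2 had the widest spread of the members, with a coefficient of variation of 39.4% in cKO and 31.0% in WT. It had 79.6, 167 and 101 CPM in cKO libraries 1, 2 and 3, against 64.7, 92.5 and 50.4 CPM in WT libraries. The estimate of 0.75 was the second largest after Igfbp4, but its 95% interval ran from 0.15 to 1.34 (edgeR adjusted p = 0.197), and it was 0.39 without cKO library 2. Igfbp2 and Igfbp5 are neighbours on chromosome 1, separated by 5437 bases and on opposite strands. Their highest cKO library differed, being library 2 for Igfbp2 and library 3 for Igfbp5. Igfbp3 had 239 to 392 CPM in cKO testes and 238 to 301 CPM in WT testes, with cKO library 3 far above the others (0.15, edgeR adjusted p = 0.745). Without that library its log2 fold change was -0.060.

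Within a library the make-up of the binding protein transcripts was described by each gene's share of the summed FPKM of the 5 genes. The share of Igfbp4 was 24.6%, 27.7% and 23.7% in cKO libraries 1, 2 and 3, against 18.7%, 22.1% and 19.5% in WT libraries, without overlap. Igfbp5 held 28.7 ± 5.22% in cKO and 31.1 ± 4.90% in WT, and Igfbp7 held 25.9 ± 1.58% in cKO and 26.7 ± 1.89% in WT. Igfbp3 held 11.7 ± 2.18% in cKO and 15.1 ± 2.08% in WT, and Igfbp2 8.36 ± 2.63% in cKO and 7.04 ± 1.42% in WT (SD, n = 3 each). The shares follow from the levels above and were not tested. The sum of the 5 genes was 722, 890 and 872 FPKM in cKO libraries and 542, 668 and 548 FPKM in WT libraries.

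**Figure D4:**
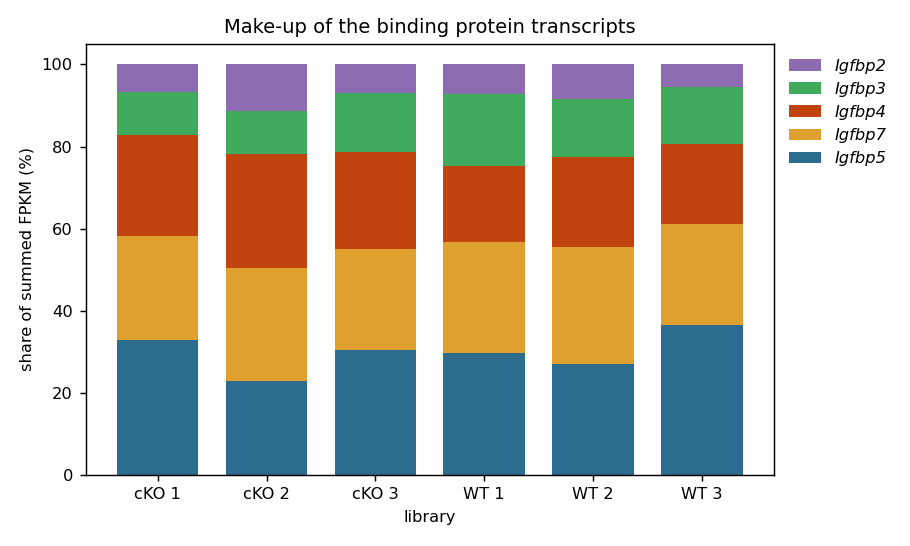
Share of each binding protein gene in the summed FPKM of the 5 genes (vertical axis, percent) in single libraries. Igfbp4 takes 23.7% to 27.7% in the cKO libraries and 18.7% to 22.1% in the WT libraries, and Igfbp5 is the largest part in 4 of the 6 libraries.

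Libraries of a group differed in a pattern shared by some members. Igfbp2, Igfbp4 and Igfbp7 were each highest in cKO library 2 among cKO and in WT library 2 among WT. Igf1, Igf2 and Igfbp5 were instead lowest in library 2 among cKO. The summed level of 10 markers of interstitial and stromal cells was 13223, 21087 and 19752 CPM in cKO libraries 1, 2 and 3, against 8944, 14319 and 12421 CPM in WT libraries, and so was also highest in library 2 of both groups. A peak in library 2 was not particular to stromal markers, because the summed Sertoli markers had it in both groups too. Their sum was 1016, 1275 and 801 CPM for cKO libraries 1, 2 and 3. For WT libraries 1, 2 and 3 it was 2549, 3519 and 2938 CPM. cKO library 1 was below WT library 2 in stromal markers, at 13223 and 14319 CPM, and above it in Igfbp4, at 792 and 656 CPM. In every other pair of a cKO and a WT library, cKO was higher in both. Of the 10 stromal markers, all had positive fold changes, 1 (Lum) was called higher by edgeR, and their median log2 fold change was 0.46. The part of stromal or Sertoli cell RNA in the level of Igfbp4 or of any other member was not tested.

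Sums of the other cell type markers are given beside the members. Over all tested genes, the unadjusted edgeR p was under 0.05 for 7.75% on the higher and 8.03% on the lower side. Called higher and lower were 1.5% and 1.84% of genes by edgeR, 3.32% and 3.61% by DESeq2, and 1.46% and 1.82% by limma-voom. The 6 fetal Leydig cell markers summed to 5005 to 6844 CPM in cKO testes and 3794 to 4497 CPM in WT testes, with a median log2 fold change of 0.47 and no call by edgeR (4 higher at an unadjusted p under 0.05, 2 called by DESeq2 and 1 by limma-voom). The 5 markers of mesonephros and ducts were rare, at a sum of 20.5 to 29.8 CPM in cKO testes and 15.2 to 19.9 CPM in WT testes, without overlap, and all had positive fold changes (median 0.56), none of them called by edgeR, DESeq2 or limma-voom (1 higher at an unadjusted p under 0.05). The 3 matched erythroid markers summed to 98.8, 139 and 269 CPM in cKO libraries 1, 2 and 3, against 68.9, 104 and 70.5 CPM in WT libraries. Of these, Hba-a1, an alpha globin gene, was called higher by edgeR (1.57, adjusted p = 0.0292). Library 3, the highest cKO library in this sum, was also the highest cKO library for Igfbp3, Igfbp5 and Igf2r. The WT libraries did not share this order. Among them the sum was highest in library 2, Igfbp3 in library 1, and Igfbp5 and Igf2r in library 3. The 8 endothelial markers summed to 557 to 673 CPM in cKO testes and 527 to 608 CPM in WT testes. Of these, 1 (Kdr) was called higher by edgeR, DESeq2 and limma-voom, and none was called lower. The 7 myoid markers summed to 759 to 862 CPM in cKO testes and 945 to 1118 CPM in WT testes, but their median log2 fold change was 0.013, with Des called higher and Ptch1 lower by edgeR. The 7 matched leukocyte markers summed to 60.3 to 68.5 CPM in cKO testes and 51.7 to 72.7 CPM in WT testes. The 7 matched germ cell markers summed to 569 to 1043 CPM in cKO testes and 841 to 1168 CPM in WT testes. The 4 matched adrenal markers summed to 28.5 to 56.8 CPM in cKO testes and 36.7 to 53.3 CPM in WT testes. Of these, 1 (Pnmt) was called lower by edgeR, DESeq2 and limma-voom, and none was called higher. The part of any of these cell types in the results on the IGF genes was not tested.

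**Figure D5:**
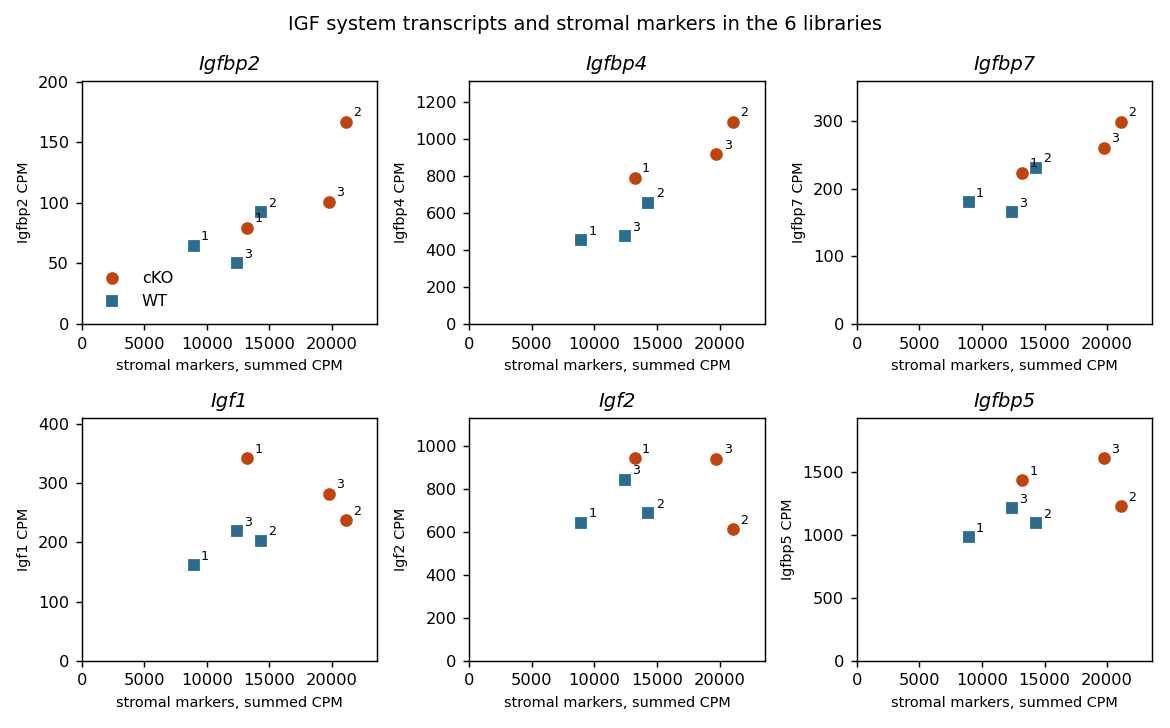
CPM of 6 members (vertical axes) against the summed CPM of 10 stromal markers (horizontal axis) in the 6 libraries, with replicate numbers. Sertoli markers, whose sum peaks in library 2 of both groups too, are not plotted. Igfbp2, Igfbp4 and Igfbp7 are highest in library 2 of each group, where the stromal sum is 21087 CPM in cKO testes and 14319 CPM in WT testes, and cKO library 2 is the lowest cKO library for Igf1, Igf2 and Igfbp5.

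Among the genes with the pattern nearest to that of Igfbp4 were Eln and Gas1, which encode elastin and a membrane protein of growth arrest. Likeness was the root mean square distance of log2 CPM, centred on each gene's mean, over the 6 libraries and 10714 protein-coding candidates averaging 10 CPM or more. The distance was 0.0405 for Eln, which had a log2 fold change of 0.81 (edgeR adjusted p = 0.0369). It was 0.0878 for Gas1, with a log2 fold change of 0.75 (edgeR adjusted p = 0.0114). The distance includes the difference between the groups, so fold changes near that of Igfbp4 follow from the choice and are no separate result. Eln lost its call in 6 and Gas1 in 3 of 16 alternative fits.

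Among 6 proteases of binding proteins and inhibitors of these proteases, Htra1 rose and Stc2 fell. Htra1, a secreted serine protease known to cut IGFBP5, had 280 ± 4.47 CPM in cKO testes and 109 ± 19.9 CPM in WT testes (a log2 fold change of 1.36, SE 0.143, edgeR adjusted p = 0.000379), and its groups did not overlap. It was called in all 16 alternative fits. Stc2, a stanniocalcin that inhibits the IGFBP4 protease PAPPA, had 22.0 ± 0.839 CPM in cKO testes and 34.4 ± 3.45 CPM in WT testes (-0.65, edgeR adjusted p = 0.0301), and was not called in 7 of 16 alternative fits. By edgeR, 1 of the 6 genes was higher and 1 lower, beside 1.5% and 1.84% of all genes, with a list median of -0.34. Without adjustment, 1 had a p under 0.05 on the higher side and 3 on the lower side, beside 7.75% and 8.03% of all genes. DESeq2 called 1 higher and 3 lower, beside 3.32% and 3.61% of all genes. Pappa (-0.50, edgeR adjusted p = 0.108) and Stc1 (-0.75, edgeR adjusted p = 0.0599), named after their values were seen, were not called by edgeR.

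Of 34 signalling genes below the receptors, 1 was higher and none was lower by edgeR, beside 1.5% and 1.84% of all genes, with a list median of -0.06. Without adjustment, 3 had a p under 0.05 on the higher side and 4 on the lower side, beside 7.75% and 8.03% of all genes. DESeq2 called 2 higher and none lower, beside 3.32% and 3.61% of all genes. Pik3r1, the regulatory subunit of PI 3-kinase, had 162 ± 14.6 CPM in cKO testes and 101 ± 15.0 CPM in WT testes (0.68, SE 0.137, edgeR adjusted p = 0.02), and lost its call in 5 of 16 alternative fits. Akt1, the most abundant of them per length over all 6 libraries, had 108 ± 2.08 FPKM in cKO and 82.2 ± 9.50 FPKM in WT (log2 fold change 0.39 from counts, edgeR adjusted p = 0.141). Grb10, an adaptor that binds the insulin and IGF1 receptors, named after its values were seen, was next in cKO and first in WT, at 96.3 ± 14.9 FPKM in cKO and 85.3 ± 11.2 FPKM in WT. These are transcript levels and do not measure receptor activation.

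The remaining IGF lists held no call by edgeR, DESeq2 or limma-voom. For the unadjusted counts below, the share over all tested genes was 7.75% on the higher and 8.03% on the lower side. Of 7 other insulin and IGF genes, 3 were tested (none at an unadjusted p under 0.05), with Igfbp6 the most abundant at 40.0 ± 3.89 CPM in cKO testes and 31.6 ± 6.15 CPM in WT testes (0.34, edgeR adjusted p = 0.341). Ins1, Ins2, Igfbp1 and Igfals were below the filter. Of the 3 IGF2 mRNA binding proteins, which bind Igf2 transcripts, Igf2bp3 was lowest in p, at 37.0 ± 2.78 CPM in cKO testes and 46.2 ± 5.41 CPM in WT testes (-0.32, edgeR adjusted p = 0.286), and 1 was lower at an unadjusted p under 0.05. Igf2bp2, the most abundant of them, had 116 ± 25.3 CPM in cKO testes and 126 ± 11.5 CPM in WT testes (-0.12, edgeR adjusted p = 0.78). Of 7 transcripts known to be raised by FOXO factors, which insulin and IGF signalling restrains, none had an unadjusted p under 0.05, and Sesn3 stood at 0.34 and Irs2 at -0.26 (edgeR adjusted p = 0.357 and 0.412). Of 4 matched genes of growth hormone receptor signalling, which controls Igf1 in liver, none had an unadjusted p under 0.05, with Ghr at 73.7 ± 7.62 CPM in cKO testes and 67.9 ± 1.27 CPM in WT testes, Stat5b at 0.14 and Jak2, the most abundant of them, at 0.08 on the log2 scale.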

How the data were processed

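RNA of 6 whole testes was measured as polyadenylated RNA on an Illumina NovaSeq, per the labels' protocols. The submitters' processing notes name HISAT2 2.0.5 and GRCm38, but 41096 of 42747 rows carry C57BL/6NJ identifiers and 0 of 10 members share a RefSeq GRCm38.p6 start, so coordinates are those of the files. The counter, the strand setting and trimming are not stated in the labels or file headers. The deposited counts are whole numbers per gene, and the deposited FPKM values divide them by gene length and a library denominator 0.968 to 1.05 times the count total. The lengths are in bases, per the file headers, and their derivation is not given.

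From the counts, edgeR 4.0.16 in R 4.3.3 was fitted to the 18383 genes passing filterByExpr (TMM, quasi-likelihood, no covariate, Benjamini-Hochberg over all genes, threshold 0.05). Standard errors are the absolute log2 fold change over the square root of F. CPM are TMM-scaled. The coefficient of biological variation was 19.7%, and tested genes had a median of 282 to 329 counts per library, so the spread between mice outweighs counting error except in rare genes. Alternatives were other scaling factors, DESeq2 1.42.0, limma 3.58.1 (voom, and log2 FPKM plus 0.1 or 1), other filters, a replicate block and leaving out each library. The procedure was also run on simulated counts with known changes, which were larger than the change of any member. The outcome is not reported here and does not give the power for the members. A chi-square test set libraries of 1 group apart from each other (12.2 to 37.4 per degree of freedom), so none was counted as a duplicate.

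The members and the 18 other lists were chosen with earlier results of these data known. The text names all members, Csnk1a1, called genes of each pathway list (up to 4, otherwise the 1 or 2 smallest p), the most abundant gene of each and the 3 genes nearest in pattern to a called member, of which 1 is not reported here. Of the list members H19, Peg10, Airn, Stat5a and Socs2, which matched no symbol, no values were analysed here.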

Additional observations from a re-analysis of the deposited data

How the results depend on the processing

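Igfbp4 was called higher in 11 of 16 alternative fits, with log2 fold changes from 0.70 to 1.02 and adjusted p up to 0.163. Igf1 was called in 3, Igfbp2 in 2 and Igfbp7 in 1 of 16, and the other 6 members in none. DESeq2, upper-quartile and library-total scaling moved the median of all genes by less than 0.1 on the log2 scale. The number of members called higher was 1, and became 2 with DESeq2, 4 with no filter on low counts, 2 with the replicate block and 0 with limma on log2 FPKM plus 0.1 or 1. It ran from 0 to 2 with 1 library left out, and no alternative called a member lower. Over all genes, 276 were higher and 339 lower, against 527 and 574 with DESeq2, 613 and 651 with no filter, 149 and 223 with limma on log2 FPKM plus 0.1, and 156 higher with 1 added. With 1 library left out the counts ran from 105 to 342 higher and from 167 to 399 lower. The log2 fold change of Igfbp3 ran from -0.060 to 0.30, that of Insr from -0.11 to 0.039 and that of Igf2bp2 from -0.27 to 0.041 with 1 library left out. The cause of these differences was not tested. Each fit that leaves 1 library out also rests on fewer libraries.

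The labels share replicate numbers between groups without saying that they mark a litter or day. Deviations of same-numbered libraries from their group means correlated at 0.0172, 0.184 and 0.0325, which does not establish a pairing, and cKO library 1 correlated best with WT library 3, at 0.157. With the replicate number as a block, Igfbp2 was called beside Igfbp4 (adjusted p = 0.028 and 0.00338). With 3 mice per group, the intervals leave room for changes of the uncalled members, up to 1.34 on the log2 scale for Igfbp2.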

Other observations

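Igf2 and Igf2r belong to the imprinted genes that act on fetal growth, and 1 other gene of that kind, Cdkn1c, was called higher in cKO testes. Of 17 matched imprinted growth genes, 1 was called higher and none lower by edgeR, beside 1.5% and 1.84% of all genes. An unadjusted p under 0.05 was found for 5 on the higher and 0 on the lower side, beside 7.75% and 8.03% of all genes, and 14 had positive fold changes, with a list median of 0.28 beside 0.00 over all tested genes. DESeq2 called 4 higher, beside 3.32% of all genes, and limma-voom 1, beside 1.46%. Neither called one lower, beside 3.61% and 1.82% of all genes. Cdkn1c, a cell cycle inhibitor that restrains fetal growth, had 233 ± 45.9 CPM in cKO testes and 127 ± 26.3 CPM in WT testes (a log2 fold change of 0.87, SE 0.177, edgeR adjusted p = 0.0218), and lost its call in 5 of 16 alternative fits. Dlk1, the most abundant of them per length and also 1 of the 10 stromal markers, had 1447 ± 235 CPM in cKO testes and 911 ± 233 CPM in WT testes (0.67, edgeR adjusted p = 0.106). The stromal markers it belongs to summed to 13223 to 21087 CPM in cKO testes and 8944 to 14319 CPM in WT testes, and their part in these levels was not tested.

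Relatives of the IGF ligands in the insulin-like and relaxin family gave no call by edgeR or limma-voom among 5 tested genes. DESeq2 called 1 higher, beside 3.32% of all genes. An unadjusted p under 0.05 was found for 1 on the higher and 2 on the lower side, beside 7.75% and 8.03% of all genes. The list median was -1.05, with 1 positive and 4 negative fold changes. Insl3, the Leydig cell hormone of testis descent, had 574 ± 47.4 CPM in cKO testes and 368 ± 85.2 CPM in WT testes, without overlap (0.64, edgeR adjusted p = 0.0687), and was called higher in 4 of 16 alternative fits. Its receptor gene Rxfp2 was rare, at 2.03 ± 0.757 CPM in cKO testes and 4.54 ± 0.593 CPM in WT testes (-1.15, edgeR adjusted p = 0.133).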
